A study of Homo sapiens with 16 samples.

Results

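MALAT1 and NEAT1 are 2 long noncoding RNAs that stay in the nucleus and are transcribed from neighbouring genes on chromosome 11. They were taken by name, MALAT1 and NEAT1, from the 28207 human gene rows of the deposited tables. They were chosen from earlier results of these same libraries, among them the lower MALAT1 level in 1 of the groups, so their levels and differences are given as a description with no p-value. The cells were U2OS, an established line from a human bone tumour (osteosarcoma), and 16 total RNA libraries were sequenced. In the labels the genotype of a library joins a number (zdna1, zdna2, zdna3 or zdna4) to one of the arms CC and CL, which makes 8 groups of 2 replicates. What the numbers and arms stand for is not written out, nor is any treatment, clone or time, so neither arm is called a control and every difference is given as CL minus CC. The series title concerns MYC, FACT and Z-DNA, a double helix that winds to the left.

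MALAT1 collects in nuclear speckles, bodies rich in splicing factors that are built around the proteins SON and SRRM2. It has no poly(A) tail of the usual kind: RNase P, whose RNA subunit is RPPH1, cuts its 3′ end, ELAC2 trims the small tRNA-like fragment (mascRNA) that is released, and the new end folds into a triple helix that METTL16 can bind. NEAT1 is the scaffold of paraspeckles, which form around its long isoform with proteins such as SFPQ, NONO, PSPC1 and RBM14. A short, polyadenylated NEAT1 isoform shares the same 5′ end, and CPSF6 with NUDT21 promotes that short form while HNRNPK favours the long one. Both RNAs are abundant in many cultured human cells.

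In the hg19 annotation of the files, NEAT1 lies on the forward strand at chr11:65190269-65213009 and MALAT1, also forward, at chr11:65265209-65273983, with 52199 bases between them. Both rows are wholly exonic and noncoding. The MALAT1 row spans 8775 exon bases, but 7201 of them (82.1%) are also exon of TALAM1, the antisense transcript of the same locus, at chr11:65266783-65274903 on the reverse strand. Reads were counted without strand, and reads over bases that 2 rows share were not assigned to either: all 800 human rows whose every exon base is shared held 0 reads in all 16 libraries. The MALAT1 row therefore counts 1574 bases at its 5′ end, chr11:65265209-65266782, and not the 3′ part with the triple helix.

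**Figure D1:**
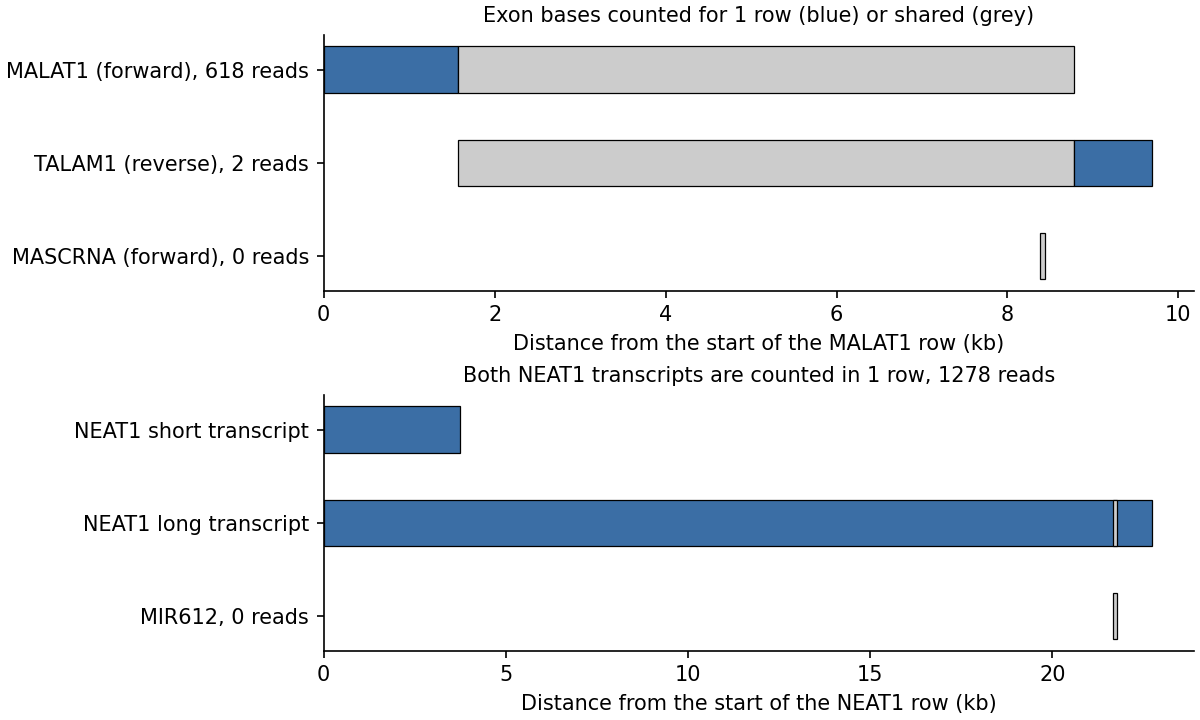
Rows of the files around MALAT1 (top) and NEAT1 (bottom), with distance from the start of each row in kb on the horizontal axis. Blue bases belong to 1 row and grey bases are shared with another row. The first 1.574 kb of MALAT1 is blue, TALAM1 has 0.920 kb of its own, and NEAT1 is blue over all but the 100 bases of MIR612.

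MALAT1 held 618 reads over the 16 libraries, or 393 per kb of its unshared bases. TALAM1 held 2 reads on its own 920 bases, 1 each in zdna2 CL replicate 1 and zdna4 CL replicate 2, or 2.17 per kb. MASCRNA, the released fragment at chr11:65273588-65273645, held 0 reads, but all of its 58 bases are shared, so this says nothing about its level. NEAT1 keeps 22641 of its 22741 bases and held 1278 reads, or 56.4 per kb. The annotation lists NEAT1 transcripts of 3735 and 22741 bases with the same start, and both are counted in 1 row, so the short and long isoforms could not be told apart. Of all human rows, 1247 (4.42%) share over 80% of their exon bases, as MALAT1 does.

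The start of MALAT1 is shown in sequence because its row counts the 5′ end of the gene. The series is also about Z-DNA, a form favoured by runs that alternate purine and pyrimidine bases, above all G and C. RefSeq's promoter table for GRCh38.p14 matched MALAT1 with 2 windows, each from 250 bases before to 50 bases after a transcript start on the forward strand; NEAT1 was not matched. The first, at chr11:65497488-65497787, covers the 5′ end of the gene, but its 250 bases before the start are not counted. Capitals mark its longest alternating run, 13 bases, which lies before the start. The second, at chr11:65498795-65499094, lies within the counted stretch, ending 218 bases before TALAM1 begins in that build, where MALAT1 also has 1574 bases before TALAM1. Capitals mark a TATAAA match.
MALAT1 window 1: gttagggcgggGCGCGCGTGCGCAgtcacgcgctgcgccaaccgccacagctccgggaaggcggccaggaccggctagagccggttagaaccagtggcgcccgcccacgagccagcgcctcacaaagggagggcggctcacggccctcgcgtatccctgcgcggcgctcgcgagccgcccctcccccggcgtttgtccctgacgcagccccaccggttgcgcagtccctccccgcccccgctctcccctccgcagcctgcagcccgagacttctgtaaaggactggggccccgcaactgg
MALAT1 window 2: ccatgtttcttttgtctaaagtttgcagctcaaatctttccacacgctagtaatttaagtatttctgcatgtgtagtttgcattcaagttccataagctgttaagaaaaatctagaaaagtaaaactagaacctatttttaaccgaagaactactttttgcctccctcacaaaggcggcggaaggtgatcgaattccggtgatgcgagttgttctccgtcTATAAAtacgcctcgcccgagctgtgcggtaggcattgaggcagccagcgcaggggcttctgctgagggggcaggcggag

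Window 1 has a GC content of 73.7% and window 2 of 46%, against a median of 58.7% over the 35116 windows of this length in the table. An alternating run of 13 bases or more is held by 5.31% of those windows, and their median longest run is 7 bases. The run in window 1 contains CGCGCG, which 16.4% of windows hold on either strand. The longest run in window 2 is 10 bases, which 18.3% of windows reach. TATAAA was found on either strand in 11.5% of windows, window 2 among them, and the MYC E-box CACGTG in 7.26%, with no match in either MALAT1 window. These matches are descriptions of letters; no binding or DNA structure was measured here.

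The libraries were shallow and uneven. They held 39335 to 310187 reads assigned to human genes, so that 1 read is worth 3.22 to 25.4 reads per 1000000 human-gene reads (CPM), the unit of level used below. Depth was lowest in zdna4 CC and zdna3 CC and highest in zdna4 CL. A reference sequence particular to each number, left out of the CPM, took 0.326 to 87.7% of all assigned reads. Of the osteoblast lineage markers examined, SPARC, COL1A1 and COL5A1 had reads in all 16 libraries and RUNX2 in all but 1. BGLAP and IBSP had none, and SP7, SPP1, COL1A2 and ALPL held 1, 7, 10 and 15 reads in all. The 10 markers summed to 1435 to 2398 CPM, most of it from SPARC and COL1A1 (means of 804 and 877 CPM). Of the 5 epithelial markers, the keratins KRT8 and KRT18 had reads in all libraries, whereas EPCAM had 14 reads in all and was at 0 in 5 libraries, CDH1 had 3 reads and was at 0 in 13, and KRT19 had 1 read and was at 0 in 15. The 4 blood markers summed to 0 to 36.0 CPM, with CD3E and HBB at 0.

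MALAT1 was highest in zdna4, intermediate in zdna1 and zdna2, and lowest in zdna3. In zdna4 CC it was at 458 and 783 CPM in replicates 1 and 2, from 18 and 32 reads. In zdna4 CL it was at 477 and 435 CPM, from 148 and 98 reads. The pair of zdna4 CL libraries lies close together and inside or just below the range of zdna4 CC. In zdna2, the CC libraries stood at 211 and 353 CPM (25 and 44 reads) and the CL libraries at 305 and 345 CPM (42 and 58 reads). The 2 arms of zdna2 overlap. In zdna1, the CC libraries stood at 315 and 333 CPM (35 and 57 reads), and the CL libraries at 124 and 159 CPM (18 and 25 reads). Both CL libraries of zdna1 lie below both CC libraries. In zdna3 it was at 108 and 47.1 CPM in CC and at 63.1 and 60.05 CPM in CL, from 6, 2, 5 and 5 reads. All 4 zdna3 libraries lie below each of the other 12. In such bulk libraries, fewer cells that make an RNA and less of it per cell cannot be told apart.

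NEAT1 followed the same broad order with a smaller range. In zdna4 CC it was at 1475 and 1052 CPM (58 and 43 reads) and in zdna4 CL at 919 and 902 CPM (285 and 203 reads). Both CC libraries lie above both CL libraries, and these 4 are the highest of the 16. In zdna1 it was at 621 and 620 CPM in CC (69 and 106 reads) and at 657 and 515 CPM in CL (95 and 81 reads). The CL libraries of zdna1 lie on either side of the CC pair. In zdna2 it was at 464 and 458 CPM in CC (55 and 57 reads) and at 574 and 369 CPM in CL (79 and 62 reads), again on either side. In zdna3 it was at 252 and 353 CPM in CC (14 and 15 reads) and at 303 and 384 CPM in CL (24 and 32 reads). The arms of zdna3 overlap, and its highest library stands above the lowest of zdna2.

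**Figure D2:**
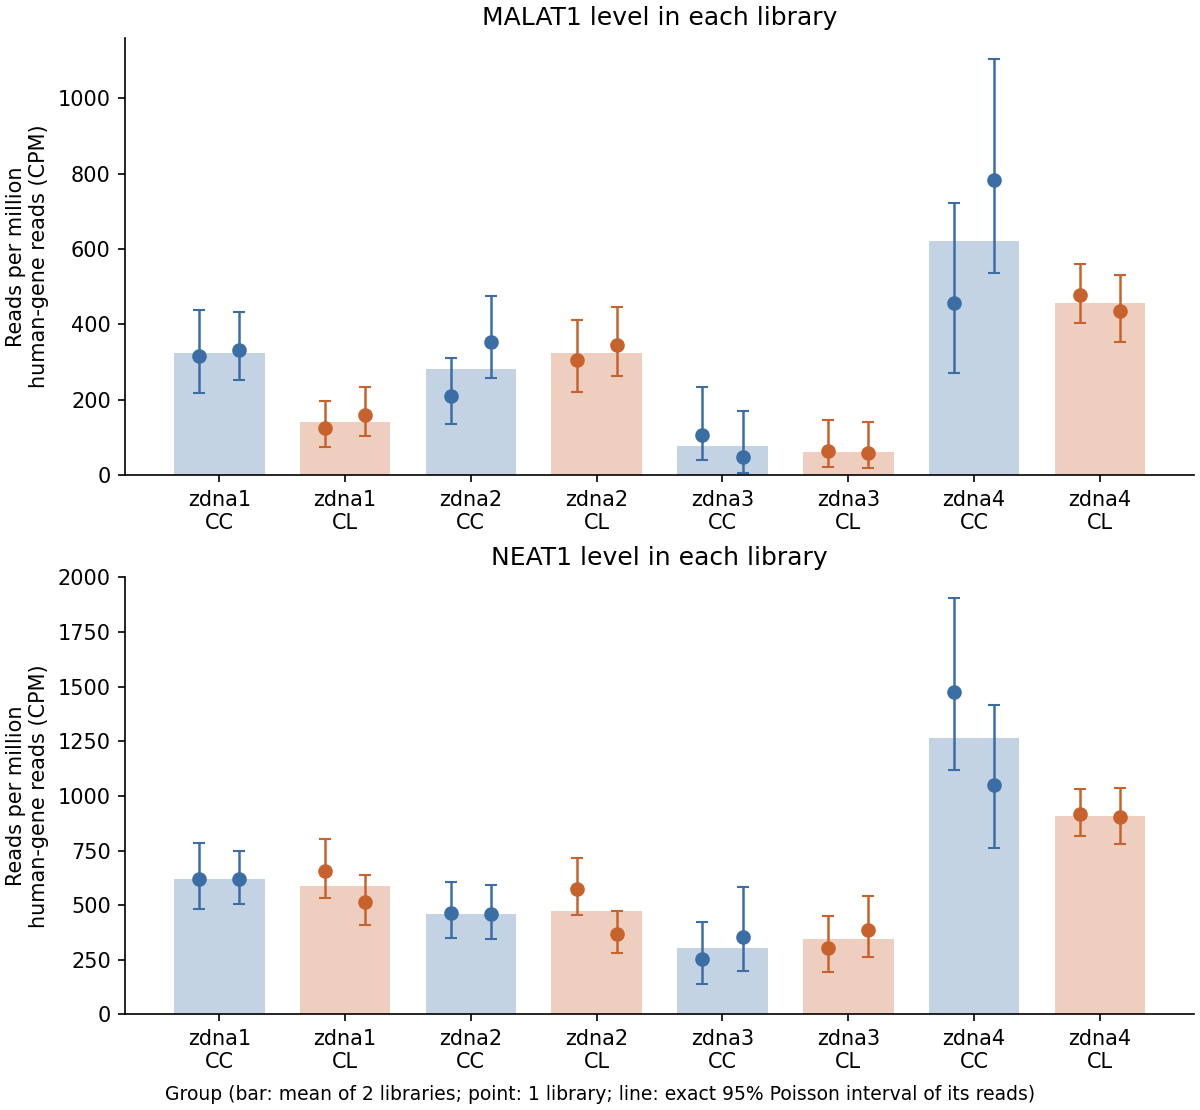
Level of MALAT1 (top) and NEAT1 (bottom) in CPM on a linear axis for the 8 groups, with a point for each library, its exact 95% Poisson interval for counting error as a line and the group mean as a bar. MALAT1 in zdna1 CL (mean 142 CPM) lies below zdna1 CC (324 CPM), while the NEAT1 means of zdna1 are 586 and 620 CPM; both genes are highest in zdna4.

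Ranked by group mean, MALAT1 ran from 620 ± 230 CPM (SD, n = 2) in zdna4 CC through 456 ± 29.6 in zdna4 CL, 325 ± 28.0 in zdna2 CL, 324 ± 13.1 in zdna1 CC, 282 ± 101 in zdna2 CC, 142 ± 24.4 in zdna1 CL and 77.5 ± 43.0 in zdna3 CC to 61.6 ± 2.19 in zdna3 CL. The highest group stood 10.1-fold above the lowest. Neighbours in this order did not overlap at 3 steps: zdna4 CL over zdna2 CL, zdna2 CC over zdna1 CL, and zdna1 CL over zdna3 CC. At the other 4 steps the libraries of neighbouring groups overlapped. NEAT1 ran from 1263 ± 299 CPM in zdna4 CC through 910 ± 12.2 in zdna4 CL, 620 ± 0.522 in zdna1 CC, 586 ± 100 in zdna1 CL, 471 ± 145 in zdna2 CL, 461 ± 4.68 in zdna2 CC and 344 ± 57.4 in zdna3 CL to 302 ± 71.6 in zdna3 CC, a 4.18-fold range. Its neighbours did not overlap between zdna4 CC and zdna4 CL, zdna4 CL and zdna1 CC, and zdna2 CC and zdna3 CL. The groups were ordered by these same values. How many other genes separate in this way was not counted, so the steps are only described. The fold ranges hold for CPM. On the scale of the deposited values, described below, both were wider. There MALAT1 means ran from 0.615 in zdna3 CC to 19.2 in zdna4 CC, and NEAT1 means from 2.39 to 37.9 in the same groups. The spread between the 2 replicates of a group, pooled over the 8 groups, was an SD of 0.38 on the log2(CPM + 10) scale for MALAT1 and 0.26 for NEAT1.

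Averaged over arms, MALAT1 was at 233 ± 107 CPM (SD, n = 4) in zdna1, 304 ± 65.2 in zdna2, 69.5 ± 26.5 in zdna3 and 538 ± 164 in zdna4. NEAT1 was at 603 ± 61.3, 466 ± 84.1, 323 ± 58.1 and 1087 ± 267 CPM. For comparison, the limma test for any difference among the numbers called 410 of 4632 human genes, or 8.85%, at an adjusted p under 0.05. The 4 zdna3 libraries rest on 18 MALAT1 reads in all, the zdna4 libraries on 296.

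Differences between the arms were fitted by limma on log2(CPM + 10), in 1 model of the 8 groups. MALAT1 in zdna1 was lower in CL by a log2 difference of -1.12 (SE 0.244), and mean CPM was 2.288-fold higher in CC. The 2 arms did not overlap. Here and elsewhere, the share of all genes whose groups of 2 libraries separate was not counted, so separation is only described. Over 16 alternative analyses of the same libraries, every scaling and each left-out replicate among them, the difference ran from -1.26 to -0.96. As both CL libraries lie below both CC libraries, leaving 1 out could not change its sign. NEAT1 in the same libraries differed by -0.06 (SE 0.170), well inside its spread, and by 0.10 on the scale of the deposited values. In that comparison limma called 35 genes of 4632, 0.756%.

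In zdna2 the MALAT1 difference was 0.25 (SE 0.248) and that of NEAT1 0.01 (SE 0.172), both no larger than their errors, with overlapping arms. The MALAT1 value became -0.10 without zdna2 CC replicate 1. In this number 0.173% of the genes tested were called. In zdna3 the differences were -0.16 (SE 0.396) for MALAT1 and 0.23 (SE 0.275) for NEAT1, again with overlapping arms and 0.0864% of genes called. With 2 to 6 MALAT1 reads per library, the zdna3 value was unsteady: it ran from -0.70 without CC replicate 2 to 0.34 without CC replicate 1. Its SE was 0.659 with the zdna3 libraries alone and 0.716 by DESeq2. Whether a change of the size seen in zdna1 could be resolved in zdna3 was not tested. On the deposited scale, where the median of all genes moved to 0.72, MALAT1 in zdna3 stood at 0.45 and NEAT1 at 0.98.

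In zdna4 both genes were lower in CL, MALAT1 by a log2 difference of -0.48 (SE 0.395) and NEAT1 by -0.55 (SE 0.274), and 1.17% of genes were called. The NEAT1 arms did not overlap. The MALAT1 arms overlapped in CPM and did not after scaling by TMM, and its difference became -0.094 without CC replicate 2. These values depend on how the arms are scaled to each other. With scaling factors taken over every human row, the median of all genes in zdna4 moved from 0.08 to 0.52, and MALAT1 and NEAT1 stood at -0.015 and -0.073. Relative to that median they were at -0.53 and -0.59, close to the -0.56 and -0.63 of the first scaling. Averaged over the 4 numbers, the difference was -0.38 (SE 0.165) for MALAT1 and -0.09 (SE 0.114) for NEAT1. The average called 0.432% of genes. The MALAT1 average ran from -0.51 to -0.088 over 28 alternatives. It rests largely on zdna1, whose difference of -1.12 was the largest of the 4, while that of zdna2 was 0.25. It is therefore not a measure of a difference shared by the numbers. The NEAT1 average was 0.24 on the deposited scale, 0.06 with scaling over every row and 0.06 without the zdna4 libraries.

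**Figure D3:**
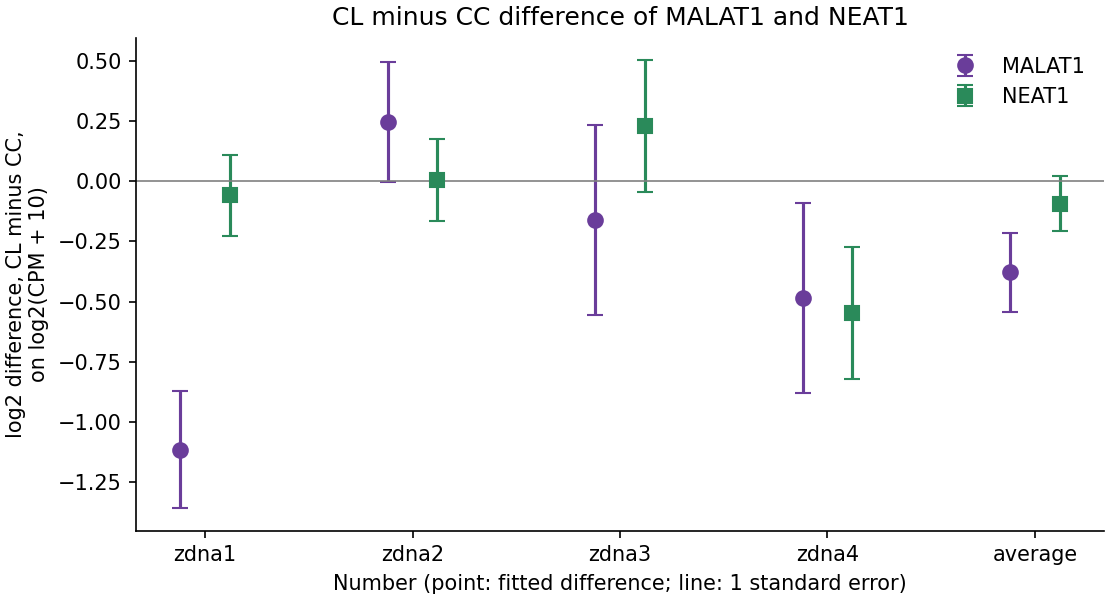
Fitted log2 difference, CL minus CC on log2(CPM + 10), of MALAT1 (circles) and NEAT1 (squares) in each number and averaged over them, with 1 standard error as lines. MALAT1 in zdna1 stands at -1.12 and NEAT1 at -0.06; in zdna4 both lie near -0.5, and in zdna2 and zdna3 each standard error is as large as its difference or larger.

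The zdna4 CC libraries stood apart from the rest in another measure. The genes of olfactory receptors, proteins of the sensory cells of the nose, together held 1449 and 1492 CPM there, against 55.3 to 396 CPM in the other 14 libraries. These 401 rows span 419.411 kb of unshared exon and held 377 reads in all. At the read density of those genes, 5.31% and 7.66% of the NEAT1 reads of zdna4 CC would be accounted for, against 0.455 to 5.57% in the other libraries. For MALAT1, with its shorter counted stretch, the share was 1.19% and 0.715% in zdna4 CC and at most 2.48% in any library. Taking this density off moved the zdna4 log2 ratio of mean CPM, CL over CC, from -0.47 to -0.39 for NEAT1 and from -0.44 to -0.43 for MALAT1. In zdna1 it left MALAT1 at -1.19.

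Within a library, NEAT1 over MALAT1 does not depend on scaling. NEAT1 had more reads than MALAT1 in all 16 libraries, by 1.07 to 7.50 times (median 2.14). In zdna1 the ratio was 1.97 and 1.86 in the CC libraries and 5.28 and 3.24 in the CL libraries. The 95% intervals for counting error were 1.29 to 3.05 and 1.34 to 2.61 in CC, and 3.17 to 9.29 and 2.05 to 5.30 in CL. The CL libraries both lie above the CC libraries, and the group means were 1.92 ± 0.0790 and 4.26 ± 1.44 (SD, n = 2). In zdna2 it was 1.75 ± 0.640 in CC and 1.47 ± 0.574 in CL, and in zdna4 2.28 ± 1.33 and 2.00 ± 0.103, each with overlapping arms. In zdna3 it was 4.92 ± 3.65 and 5.60 ± 1.13. The 2 zdna3 CC libraries gave 2.33 and 7.50, the latter from 2 MALAT1 reads with an interval of 1.74 to 67.6.

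**Figure D4:**
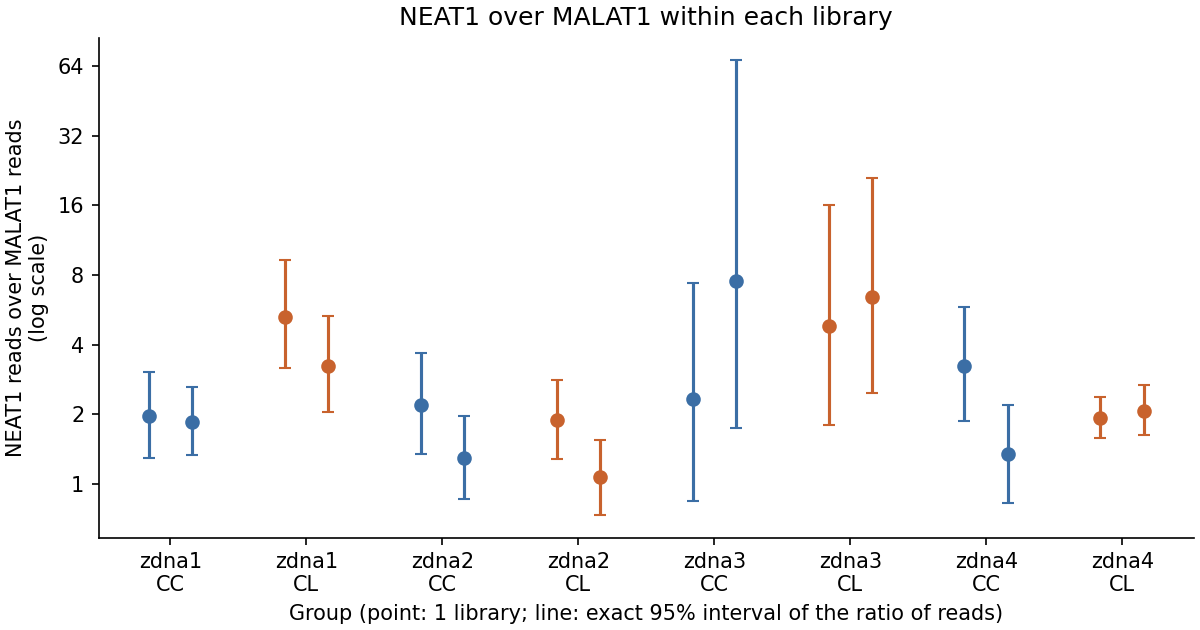
NEAT1 reads divided by MALAT1 reads in each of the 16 libraries, on a log axis, with exact 95% intervals for counting error. The 2 zdna1 CL libraries (5.28 and 3.24) lie above the 2 zdna1 CC libraries (1.97 and 1.86), and the widest intervals belong to zdna3.

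Which RNA is the more abundant per base turns on the counted length. Per kb of unshared exon, MALAT1 stood 1.92 to 13.5 times above NEAT1 (median 6.74), at 29.9 to 497 reads per kb per 1000000 human-gene reads against 11.1 to 65.1. Divided by the whole row lengths, as an ordinary RPKM would be, NEAT1 over MALAT1 was 0.412 to 2.89 (median 0.824), so that some libraries show NEAT1 above MALAT1. The counted lengths are 1.574 and 22.641 kb. In GRCh38.p14, the second RefSeq start of MALAT1 lies 1307 bases after the first, within the 1574 bases before TALAM1. Transcripts from it would cover only the end of the counted stretch, which the values per kb do not allow for. The use of either start was not measured, so it cannot be told apart from a change in MALAT1 level.

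**Figure D5:**
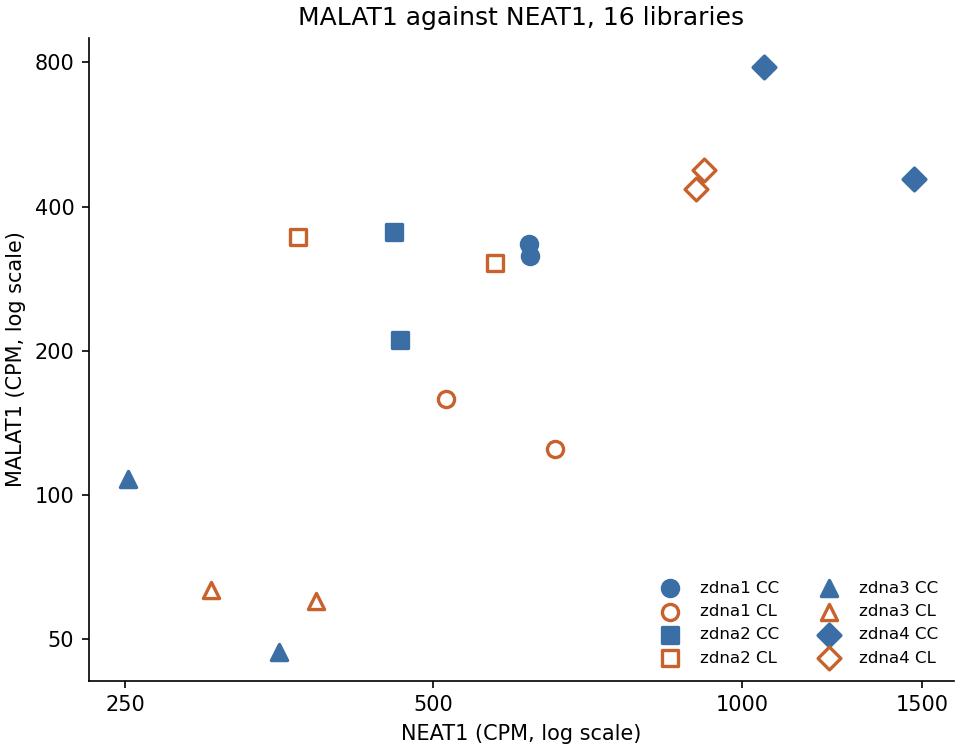
MALAT1 against NEAT1 in CPM, both on log axes, 1 point per library, with symbols for the number and filled or open points for CC or CL. The zdna4 libraries lie at the top right and the zdna3 libraries at the bottom left; the 2 open circles of zdna1 CL lie below the filled ones at a similar NEAT1 level.

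Across the 8 group means of log2(CPM + 10), Pearson's r between MALAT1 and NEAT1 was 0.843, a description over groups that share a cell line and differ in depth. Each was compared with 921 human genes whose mean reached 200 CPM: NEAT1 ranked 18 in likeness to MALAT1, and MALAT1 ranked 15 in likeness to NEAT1. Without the 2 zdna4 groups r was 0.693 and the ranks 151 and 101. The 5 genes most like MALAT1 were KMT2E (r = 0.953), a chromatin regulator, AAK1 (0.946), a kinase of endocytosis, HNRNPH1 (0.933), a splicing factor, QSER1 (0.922) and SEPTIN11 (0.920), a septin. For NEAT1 they were HP1BP3 (0.959), a heterochromatin-associated protein, KMT2E (0.936), SIN3A (0.923), a corepressor scaffold, CUX1 (0.890), a transcription factor, and SYNE2 (0.889), which links the nuclear envelope to the cytoskeleton. KMT2E shows the shared part of the pattern, with 485 and 377 CPM in zdna4 CC and CL and 152 and 178 CPM in zdna3. Without the zdna4 groups 0 of these 5 genes stayed among the 5 most like either RNA, and r with the log2 of library depth was then 0.799 for MALAT1 and 0.880 for NEAT1, against 0.238 and 0.057 over all 8 groups. The part of depth in these likenesses was not tested.

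Among the paraspeckle proteins, 27 of 29 listed genes were abundant enough to test. Core proteins were expressed: per kb of exon, NONO averaged 241 CPM, SFPQ 173, PSPC1 14 and RBM14 11.4. Over their whole rows, PSPC1 and RBM14 had means of 79.0 and 61.3 CPM. None of the 27 was called between arms in zdna1, zdna2, zdna3 or on average by limma, against 0.756, 0.173, 0.0864 and 0.432% of all genes. Of the 27, 2, 5, 1 and 2 had an unadjusted p under 0.05, and edgeR and DESeq2 called 0 there as well. Their median log2 differences were 0.00, 0.07, -0.03 and 0.09, against 0.00, -0.01, 0.06 and 0.05 over all genes tested. In zdna4 limma called 1 of the 27 (3.70%, against 1.17% of all genes), CPSF6, at 12.7 CPM in CC and 138 CPM in CL (adjusted p = 0.00513). Its CC libraries hold 1 read against 74 in CL, a ratio of 11.1 with a 95% counting interval of 1.93 to 444, and the call was lost without CC replicate 2 (adjusted p = 0.255) and by DESeq2 (adjusted p = 0.509). Among the numbers 5 of 27 (18.5%) were called by limma, against 8.85% of all genes, and 4 of them are given here. HNRNPF (adjusted p = 0.0184) was highest in zdna3, at 556 CPM in CC and 419 CPM in CL against 250 to 336 CPM elsewhere. Its call was lost without any 1 of the 4 zdna3 libraries (adjusted p from 0.0667 to 0.14) and with no filter (0.131). SFPQ (adjusted p = 0.0220) ran from 528 CPM in zdna1 CL to 894 CPM in zdna2 CL, and was not called by DESeq2 (adjusted p = 0.206), with no filter on low genes (0.131), without array weights (0.104), or without replicate 1 of zdna1 CC (0.105), zdna1 CL (0.141), zdna2 CC (0.0985) or zdna2 CL (0.0567). MATR3 had an adjusted p of 0.0495 and CPSF6 of 0.0485. The MATR3 and CPSF6 calls were made in 7 of 28 and 8 of 27 alternatives. NONO, PSPC1 and RBM14 were not called by limma between arms or among the numbers.

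Of the nuclear speckle proteins, 27 of 32 were tested. SRRM2 fell in zdna1, from 1561 ± 273 CPM in CC to 1093 ± 118 in CL (SD, n = 2, log2 difference -0.47, SE 0.114, limma's adjusted p = 0.0207). It was 1 of the 27 there (3.70%, against 0.756% of all genes called). It was the single speckle gene called between arms in any number or on average, and the call was lost without CC replicate 1 (adjusted p = 0.701), without CL replicate 1 (adjusted p = 0.308) and in 4 other alternatives, DESeq2 among them (adjusted p = 0.0703). SON, the other core protein, was at 500 and 410 CPM in zdna1 CC and CL (log2 difference -0.25, adjusted p = 0.642) and was not called by limma between arms or among the numbers. The median of the list in zdna1 was -0.21, against 0.00 over all genes, with 2 members at an unadjusted p under 0.05. In zdna2, zdna3, zdna4 and the average, 0, 2, 1 and 3 members reached that level and none was called by limma, edgeR or DESeq2. Of all genes, limma called 0.173, 0.0864, 1.17 and 0.432% there. Among the numbers limma called 2 of the 27 (7.41%, against 8.85% of all genes), BCLAF1 (adjusted p = 1.62e-04) and the kinase PRPF4B (adjusted p = 7.08e-04). DESeq2 called the same 2, and edgeR called them and SRRM2, whose adjusted p by limma was 0.0815. BCLAF1 and PRPF4B were lowest in zdna3. BCLAF1 was at 176 and 173 CPM there against 305 to 443 CPM elsewhere. PRPF4B was at 92.0 and 73.9 CPM against 147 to 249.9 CPM.

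Of the 13 genes that make or bind the MALAT1 3′ end, 3 were abundant enough to test. RPPH1, the RNase P RNA, rose in zdna1 from 4741 ± 88.2 CPM in CC to 6675 ± 34.8 in CL (SD, n = 2; log2 difference 0.53, SE 0.0687, adjusted p = 3.49e-07). It also rose in zdna2, from 3685 ± 102 to 4881 ± 126 CPM (0.41, SE 0.0697, adjusted p = 4.17e-04). In zdna4 it was at 3976 ± 849 and 5515 ± 177 CPM (0.39, limma's adjusted p = 0.0641). There it was called by edgeR (adjusted p = 0.0313), with library totals (0.00686), on the deposited scale (4.99e-04) and with TMM over every row (2.52e-08), and not by DESeq2 (0.0876). In zdna3 RPPH1 was at 4875 ± 128.5 and 3524 ± 179 CPM (-0.43, limma's adjusted p = 0.178), which DESeq2 called (adjusted p = 0.0487) and edgeR did not (0.0872). The zdna3 value turned to 0.40 (adjusted p = 0.0112) on the deposited scale, whereas those of the other numbers stayed above 0 under each scaling. Without array weights the zdna2 call was lost (adjusted p = 0.299). An F test of whether the 4 arm differences are equal, chosen after the data were seen, called RPPH1 (adjusted p = 1.05e-05) among 0.864% of genes. On the deposited scale, where its 4 differences were all positive at 0.69, 0.45, 0.40 and 0.77, that test did not call it (adjusted p = 0.241). The average was 0.23 (adjusted p = 0.00599), not called without the zdna4 libraries (adjusted p = 0.260) or without zdna4 CC replicate 2 (adjusted p = 0.127). ELAC2 was at 67.0 to 112 CPM and was not called between arms or among the numbers. METTL16, at a mean of 41.2 CPM, was below the level tested. It stood lower in CL in zdna1 (66.6 ± 5.10 CPM in CC, 22.8 ± 12.7 in CL) and zdna2 (74.1 ± 2.62, 47.2 ± 25.7), about level in zdna3 (29.8 ± 8.79, 30.6 ± 7.62) and higher in CL in zdna4 (12.7 ± 17.98, 45.99 ± 10.3), where CC holds 1 read.

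Of the nuclear RNA decay and retention genes 12 of 22 were tested. Between arms 0 were called by limma, against 0.0864 to 1.17% of all genes. By limma 2, 0, 0, 1 and 0 had an unadjusted p under 0.05 in zdna1, zdna2, zdna3, zdna4 and the average. In these comparisons and among the numbers, 0 were called by edgeR or DESeq2. Among the numbers limma called 1 of the 12 (8.33%, against 8.85% of all genes): NXF1, the mRNA export receptor (adjusted p = 0.0184). Its lowest group, zdna4 CC at 24.5 CPM, holds 2 reads, both in replicate 2. The call was lost without zdna4 CC replicate 1 (adjusted p = 0.366), without the zdna4 libraries (0.496), without zdna2 CL replicate 1 (0.0582), by edgeR (0.0742), by DESeq2 (0.269), without array weights (0.0703) and with no filter on low genes (0.356). Of the genes of NEAT1 3′ end and isoform choice 16 of 19 were tested. CPSF6, shared with the paraspeckle list, was the single gene limma called. It was called in zdna4 (6.25%, against 1.17% of all genes) and among the numbers (6.25%, against 8.85%). By edgeR CPSF6 was called in zdna4, and among the numbers HNRNPK (adjusted p = 0.024; 0.0571 by limma) in place of CPSF6 (0.111). DESeq2 called none of the 16 in either comparison. HNRNPK was lowest in zdna4 CC, at 496 ± 163 CPM, and highest in zdna2 CC, at 908 ± 78.4 CPM. Of 42 other long noncoding RNAs 15 were tested. None was called between arms by limma, edgeR or DESeq2, where limma called 0.0864 to 1.17% of all genes. By limma 0, 1, 1, 1 and 1 had an unadjusted p under 0.05. TUG1 (adjusted p = 7.08e-04) and NORAD (adjusted p = 0.0297) were called among the numbers by limma, 13.3% of those tested against 8.85% of all genes. There edgeR also called KCNQ1OT1. TUG1 and NORAD were lowest in zdna3, TUG1 at 127 and 86.8 CPM against 200 to 310 CPM elsewhere, and NORAD at 259 and 254 CPM against 363 to 461 CPM. The NORAD call was lost without zdna3 CC replicate 2 (adjusted p = 0.285), without zdna3 CL replicate 2 (0.265), by DESeq2 (0.185) and with no filter (0.135), whereas TUG1 was called by limma, edgeR and DESeq2 and without each library in turn, and lost only with no filter (0.0616).

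The 500 kb on either side of the pair hold 66 other rows, of which 18 were tested, among them EIF1AD, CAPN1, RELA, MRPL49, LTBP3, DRAP1, SART1, C11orf68, FOSL1, DPF2, CDCA5, BANF1, EHBP1L1, CFL1, FIBP, FAU and PCNX3. None was called in zdna1, where MALAT1 was lower in CL, by limma, edgeR or DESeq2. Limma called 0.756% of all genes there, so 0 of 18 is near that share. Of the 18, 0 had an unadjusted p under 0.05 there by limma, against 489 of all 4632 genes. The median log2 difference of the 18 was 0.08. None was called among the numbers by limma or DESeq2 either, with 2 at an unadjusted p under 0.05 by limma, and edgeR called LTBP3. FOSL1, an AP-1 subunit 386 kb away, fell in zdna4 from 200 ± 76.0 to 50.2 ± 1.93 CPM (log2 difference -1.85, SE 0.467, limma's adjusted p = 0.0351). It was the 1 neighbour limma called there (5.56% of the 18, against 1.17% of all genes). That call was lost without CC replicate 1 (adjusted p = 0.483), without CC replicate 2 (0.0718), without CL replicate 2 (0.0581) and in 4 of the other alternatives.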

How the data were processed

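MALAT1 and NEAT1 were read from tables of 16 libraries. Trizol RNA went into an Abclonal library kit, per the labels' protocols. Per the submitters' processing notes, Trim Galore 0.6.6, STAR and bedtools 2.29.2 were used, with hg19 and dm6 as genomes. Per the file headers, featureCounts 2.0.1 counted fragments over exons in paired mode, with no strand option and no option for overlapping rows. The deposited values are a scaled signal, not whole counts: within each library at least 99.99% of values were whole multiples, within 0.1 read, of a step of 0.115 to 0.802, and division by it gave reads. How the authors obtained the scale is not given in the sources used here.

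CPM is reads per 1000000 human-gene reads. limma 3.58.1 was fitted in R 4.3.3 on log2(CPM + 10) of 4632 human genes (mean of 50 CPM or more), with TMM factors (edgeR 4.0.16), array weights per group, a variance trend and Benjamini-Hochberg adjustment at 0.05, two-sided. The fit was tested on simulated data. Alternatives included edgeR's quasi-likelihood test and DESeq2 1.42.0. Shared bases were computed from the exon coordinates in the files. Poisson and ratio intervals are exact, at 95%, and hold for counting error alone, because no molecular identifiers were used to count molecules.

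The members, lists and the naming rule were chosen with earlier results of these data known. Named were both members, called list genes (the 4 with the smallest p where more were called, though MATR3, ranked below them, is also given), 10 always given, the 5 most alike genes and tested neighbours within 500 kb; some genes under this rule are not reported here. The labels do not say whether replicates were separate cultures, so the spread may be technical. Chi-square tests did not separate the replicates of zdna1 CC (p = 0.0992), zdna2 CL (p = 0.281) and zdna3 CC (p = 0.744), but the share of the extra sequence differed in every pair (p at most 0.00183), and all were kept. Deviations of same-numbered libraries correlated at -0.07 to 0.06 over 28 pairs, so the numbers were not taken to pair libraries.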

Additional observations from a re-analysis of the deposited data

Results flagged for a closer look

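The arm difference of RPPH1, the RNA subunit of RNase P, differed among the numbers by limma's F test of the difference itself (adjusted p = 1.053e-05): both CL libraries were above both CC libraries in zdna1, zdna2 and zdna4, and below them in zdna3, in CPM; on the deposited scale the zdna3 difference was 0.40. It was called in 24 of 25 alternatives, edgeR and DESeq2 among them, and not on the deposited scale (adjusted p = 0.241), where all 4 differences were positive. The same test called FOSL1 (adjusted p = 0.01485), called in 21 of 25 alternatives with an adjusted p up to 0.244, and CPSF6 (adjusted p = 0.02667), called in 17 of 25 with an adjusted p up to 0.442. FOSL1 lost the call without zdna4 CC replicate 1 (0.244) or replicate 2 (0.0541), and, in zdna2, without CC replicate 1 (0.101) or CL replicate 2 (0.0554). CPSF6 has 1 read in zdna4 CC, and lost it most without zdna4 CC replicate 2 (0.442); edgeR (0.0948) and DESeq2 (0.294) did not call it. MALAT1 and NEAT1 had no pair of numbers in which the arms separated in opposite directions.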

How the results depend on the processing

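Of 184 alternative values of the MALAT1 and NEAT1 arm differences, 172 had the sign reported; the other 12 are given here or in the report, among them NEAT1 in zdna2, at -0.0022 with library totals and -0.0089 without zdna2 CC replicate 2. Counts of genes called held within 1.5 times with edgeR's quasi-likelihood test, library totals, DESeq2's size factors and the replicate block (34, 7, 3, 47 and 17 genes for zdna1, zdna2, zdna3, zdna4 and the average, and 391 among the numbers); the block changed no member's value. DESeq2 gave 14, 3 and 24 genes in zdna1, zdna2 and zdna4 and 209 among the numbers. The deposited scale gave 5, 1049 and 212 in zdna2, zdna3 and zdna4, 1019 for the average and 4386 among the numbers, with MALAT1 at 0.45 and NEAT1 at 0.98 in zdna3, and NEAT1 at -0.17 in zdna4 and 0.24 on average. A pseudocount of 2 gave 22 in zdna4 and 10 for the average, and a filter of 200 CPM 55 in zdna1. No filter gave 0, 92, 0 and 87 for zdna3, zdna4, the average and the numbers. Without array weights the counts were 10, 0, 8, 122 and 13. TMM over every row, chosen after seeing the data, gave 439 in zdna4, 159 for the average and 736 among the numbers, with zdna4 MALAT1 at -0.015 and NEAT1 at -0.073. The zdna4 libraries alone gave 13, and the average without them 5. The cause of these shifts was not tested.

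Leaving out each library in turn, with array weights kept from the full fit and a lone library assumed to vary like the rest, gave 10 to 45 genes in zdna1, 4 to 10 in zdna2, 0 to 33 in zdna3, 31 to 47 in zdna4, 10 to 27 for the average and 292 to 397 among the numbers. MALAT1 ran from -1.26 to -0.96, -0.10 to 0.60, -0.70 to 0.34 and -0.85 to -0.094 in zdna1 to zdna4, and from -0.51 to -0.24 on average. NEAT1 ran from -0.24 to 0.13, -0.30 to 0.32, -0.031 to 0.44 and -0.78 to -0.29, and from -0.17 to -0.014 on average. The r of MALAT1 and NEAT1 was 0.693 without zdna4. Depth limits zdna3, at 2 to 6 MALAT1 reads a library.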
